A study of Mus musculus with 96 samples.

Results

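The genes of the gastric mucosa followed here were *Gkn1*, *Gkn2*, *Gkn3*, *Tff1*, *Tff2*, *Muc5ac*, *Atp4a*, *Atp4b*, *Pgc*, and *Ghrl*, 10 of the 41575 gene symbols in the count table. They were chosen by name, with earlier results of these data known, and all were found in it. RNA was measured in bulk by MuSeq, in which each sample receives a barcode during reverse transcription and samples are then pooled, in 16 tissues of 3-week-old wild-type (WT) and Scx-/- mice with 3 libraries per tissue and genotype (96 libraries). Organs were frozen whole. Beside the stomach they were parts of the gut (intestine, rectum), other viscera (liver, kidney, spleen, lung, bladder), brain (cortex, hippocampus), muscle and heart, skeleton (bone, cartilage), and the tissues labelled adipose and vascular. *Scx* encodes scleraxis, a transcription factor of the tendon lineage, and the sources used here do not say what of the gene the mutant allele lacks. They also do not give the sex of each animal or tie libraries to animals, so p-values measure the spread between libraries.

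The glandular stomach is lined by surface (pit) cells that secrete a mucous coat, and its glands hold mucous neck cells, acid-secreting parietal cells, pepsinogen-secreting chief cells, and hormone-secreting endocrine cells. Gastrokines (*Gkn1*, *Gkn2*), the trefoil factor *Tff1*, and the gel-forming mucin *Muc5ac* are products of the surface cells, and *Tff2* and *Gkn3* are products of the neck cells. *Atp4a* and *Atp4b* are the catalytic and the glycosylated subunits of the proton pump that acidifies the gastric lumen, *Pgc* is the pepsinogen progastricsin, and *Ghrl* is the precursor of the appetite hormone ghrelin.

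In mm10 coordinates of GENCODE M21, the gastrokines lay side by side on chromosome 6, with *Gkn1* at chr6:87345650-87350942 (minus strand), *Gkn2* at chr6:87373357-87379497 (plus strand), and *Gkn3* at chr6:87383256-87388935 (minus strand). *Ghrl* lay farther along the same chromosome at chr6:113716119-113719880 (minus strand). The trefoil factors were neighbours on chromosome 17, *Tff2* at chr17:31141049-31144282 and *Tff1* at chr17:31161395-31165277, both on the minus strand, and *Pgc* was at chr17:47726842-47734482 (plus strand). *Atp4a* was at chr7:30712209-30725534 and *Muc5ac* at chr7:141788972-141819231, both on the plus strand, while *Atp4b* was at chr8:13386205-13396825 (minus strand). *Tff1*, *Atp4b*, and *Ghrl* overlap other annotated genes (*Gm15318*, *Gm45410*, and *Gm26982* with *Gm44033*), which the count table does not list. Whether counting used strand is not given, so for these 3 genes reads of the overlapping genes could not be told apart.

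Promoter sequences from RefSeq (GRCm38.p6) were matched for 6 of the 10 genes. They are shown for the gastrokine neighbours, whose counts were high in the same tissue, and for the pump gene *Atp4a*. The gastrokine windows were added after the values of these genes were seen. Each line gives the 250 bases before the RefSeq transcription start, 5′ to 3′ on the strand of the gene. Capitals mark the motif GATAAG, the related motif GATAAC, and the TATA box letters TATAAA, which were searched on both strands (CTTATC in capitals is GATAAG on the opposite strand).
*Gkn1*, chr6:87350916-87351165, minus strand: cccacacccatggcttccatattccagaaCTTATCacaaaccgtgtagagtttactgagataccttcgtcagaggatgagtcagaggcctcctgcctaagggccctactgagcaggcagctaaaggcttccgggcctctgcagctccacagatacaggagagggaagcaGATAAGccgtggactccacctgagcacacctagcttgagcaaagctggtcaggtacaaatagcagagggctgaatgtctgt
*Gkn2*, chr6:87373115-87373364, plus strand: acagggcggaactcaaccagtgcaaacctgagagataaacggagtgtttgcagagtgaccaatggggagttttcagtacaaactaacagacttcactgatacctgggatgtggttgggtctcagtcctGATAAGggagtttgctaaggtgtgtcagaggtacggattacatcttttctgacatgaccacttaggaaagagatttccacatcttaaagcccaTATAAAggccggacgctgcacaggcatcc
*Gkn3*, chr6:87388936-87389185, minus strand: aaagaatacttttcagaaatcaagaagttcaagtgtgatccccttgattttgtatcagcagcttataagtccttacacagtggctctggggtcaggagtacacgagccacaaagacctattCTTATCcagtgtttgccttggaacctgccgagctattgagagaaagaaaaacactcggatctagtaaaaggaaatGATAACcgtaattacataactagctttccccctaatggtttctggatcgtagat
*Atp4a*, chr7:30711959-30712208, plus strand: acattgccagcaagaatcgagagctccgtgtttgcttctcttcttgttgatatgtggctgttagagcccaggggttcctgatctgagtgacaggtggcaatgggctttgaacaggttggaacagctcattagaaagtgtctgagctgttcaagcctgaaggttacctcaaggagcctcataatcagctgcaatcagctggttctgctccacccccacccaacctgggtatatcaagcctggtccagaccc
GATAAG, letters that GATA factors bind, stood in all 3 gastrokine windows. In *Gkn1* it began 81 bases before the start, with a copy on the opposite strand at 221, in *Gkn2* it began at 122, and in *Gkn3* it stood on the opposite strand at 129. Of 32851 mouse promoter windows of the same length, 2151 (6.55%) held these letters on either strand. *Gkn3* also held GATAAC (4.43% of windows) and *Gkn2* held TATAAA (12.4% of windows) 29 bases before its start. None of the 3 motifs stood in the *Atp4a* window or in the *Ghrl* windows, and of the 3 the *Pgc* window held only TATAAA, which says only that the other letters were not in them. No motif overlapped another in these windows, and a match is a description of the letters and not of binding.

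Library totals ran from 11244 to 1658192 counts, and from 303011 to 700065 in stomach. The deleted gene had 80 counts over 12 WT libraries and 9 counts in 1 Scx-/- library, a cartilage library. In stomach it had 3 counts, all in 1 WT library, so that at this depth the labels of the stomach libraries could not be checked by it. The adipose libraries went against their label. A list of 15 pancreatic acinar genes took 47.7 to 58.8% of the counts in each of them, while the adipocyte genes *Adipoq* and *Plin1*, chosen after the values were seen, were at 0 in 5 of 6 libraries each. Levels are counts scaled to a common library total (CPM), and the tests compare them within a gene. The study calls the libraries 3′-enriched, and sums and shares over genes are of reads and not of transcripts. Intervals and floors cover counting error only, and in these bulk samples fewer cells of a type cannot be told apart from less RNA per cell.

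The 10 genes together took 15.8 to 24.0% of all counts in the stomach libraries. Over the 6 stomach libraries their summed level was 192197 ± 26871 CPM (SD, n = 6), while adipose followed at 4101 ± 884 CPM, intestine at 2400 ± 2805 CPM, and cartilage at 896 ± 350 CPM. Rectum, kidney, and liver had summed means of 484, 401, and 388 CPM, and the remaining 9 tissues had 145 CPM or less. No member count appeared among 3857772 counts of muscle, and bone held 1. For all 10 genes the stomach had the highest mean. Since the genes were chosen as gastric, this and the comparisons with other gut tissues below describe their levels and test no hypothesis. The ranges of the stomach libraries and of the tissue next in order did not overlap for 8 genes, and they overlapped for *Tff2* and *Gkn3*. Of the 905 genes of the whole table with their highest mean in stomach, 5.19% had ranges that did not overlap. Below stomach, 139 of 140 pairs of tissues next to each other in the order of a gene overlapped, the exception being *Tff2* in adipose over intestine. Pairs of tissues both without a count, such as bone and cortex for *Gkn2*, overlap by definition and are among the 139.

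**Figure D1:**
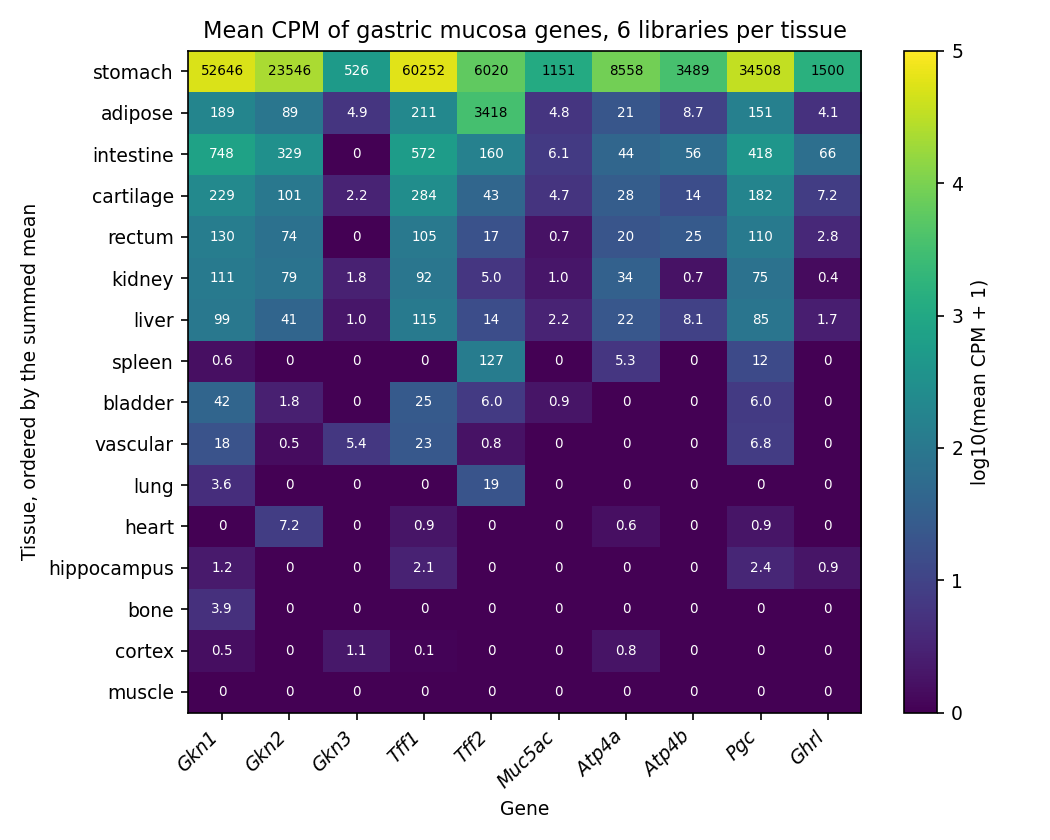
Mean CPM of each gene (columns) in each of the 16 tissues (rows, ordered by the summed mean), over 6 libraries of both genotypes. Color gives log10 of the mean plus 1 and the printed number is the mean itself. Stomach was highest for every gene, and intestine followed for all but *Tff2*, next in adipose at 3418 CPM, and *Gkn3*, next in vascular at 5.39 CPM, a mean that rested on 5 counts in vascular WT replicate 2. Adipose, with 5 counts of *Gkn3* over 4 libraries, followed at 4.87 CPM.

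Among the surface cell products, *Gkn1* averaged 52646 ± 10061 CPM in stomach (SD, n = 6), and intestine, the next tissue, had 748 ± 975 CPM, 1.42% of the stomach mean. *Gkn2* had 23546 ± 4724 CPM in stomach and 329 ± 467 CPM in intestine. *Tff1* had 60252 ± 10874 CPM in stomach and 572 ± 935 CPM in intestine. The intestinal SD of each exceeded its mean. *Muc5ac* reached 1151 ± 470 CPM in stomach and was counted 24 times in all other libraries together.

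Of the gland products, *Pgc* averaged 34508 ± 4749 CPM in stomach and 418 ± 498 CPM in intestine. *Atp4a* had 8558 ± 1145 CPM in stomach and 44.5 ± 59.6 CPM in intestine, and *Atp4b* had 3489 ± 351 CPM and 56.4 ± 78.3 CPM. Both pump subunits were the steadiest members in stomach, the highest library standing 1.38 times above the lowest for *Atp4a* and 1.32 times for *Atp4b*. *Gkn3*, the least steady, spanned 16.5 to 1575 CPM in stomach, a 95.5-fold range, and outside stomach had 35 counts in 13 of 90 libraries. *Ghrl* averaged 1500 ± 588 CPM in stomach and 66.1 ± 106 CPM in intestine.

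Genes of other stomach cells gave a check of the label. *Gif*, which encodes intrinsic factor (in mice a product of chief cells, listed here with the parietal genes), averaged 5154 CPM in the stomach libraries, and the parietal carbonic anhydrase gene *Car2* 1491 CPM. *Ctse*, *Anxa10*, and *Cldn18*, which mark gastric epithelium, averaged 2423, 827, and 695 CPM. The chief cell genes *Chia1* and *Pga5* averaged 5946 and 912 CPM, and the neck cell mucin *Muc6* 14.9 CPM. The gastric lipase gene *Lipf*, listed with the chief cells, was at 0 in all 6 libraries, as were the enterocyte gene *Sis* and the goblet cell mucin *Muc2*. Other genes of these intestinal lists were counted, with means of 874 CPM for *Apoa1*, 137 CPM for *Apoa4*, and 1034 CPM for *Agr2*. The enterocyte list summed to 763 to 1550 CPM and the goblet list to 739 to 2047 CPM in a stomach library. The highest goblet sum was that of Scx-/- replicate 1, where *Zg16*, also known from the zymogen granules of pancreatic acinar cells, measured 951 CPM and the pancreatic list 27647 CPM. In the adipose libraries, rich in pancreatic genes, the goblet list summed to 16662 to 24267 CPM. The part of pancreatic RNA in the goblet list was not tested. Genes whose log2(CPM + 1) across all 96 libraries followed the mean of the 10 members most closely were *Cym* (r = 0.94), *Gif* (0.93), *Pla2g1b* (0.89), *1810010D01Rik* (0.86), and *Gsdma2* (0.86), of 17402 genes compared (Pearson's r). *Cym* encodes the milk-clotting protease chymosin, and the points share depth and libraries, so r is given as a description.

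Stomach was next compared with the other gut tissues, within each genotype, with the quasi-likelihood test of edgeR and p-values adjusted over all genes by the method of Benjamini and Hochberg. Against rectum, 9 of 10 members were higher in WT stomach at an adjusted p under 0.05, against 1.12% of the 14108 genes tested, the exception being *Gkn3* (adjusted p = 0.578). In Scx-/- mice 9 were higher, against 1.14% of 15336 genes, the exception being *Atp4a* (adjusted p = 0.0502). With RLE factors 8 members were called in each genotype, among 142 genes called higher in WT and 163 in Scx-/- stomach. By DESeq2 10 were, among 187 and 171. The median log2 fold change of the members was 9.69 in WT and 9.31 in Scx-/- mice, beside medians of 0.49 and 0.10 over all genes, and 8.92 and 8.83 with the genes absent from rectum at the bound that 3 counts allow. Against intestine, 4 of 10 were higher in WT stomach (*Gkn2*, *Muc5ac*, *Atp4a*, *Ghrl*) where 1.58% of 14130 genes were, and 5 of 10 in Scx-/- stomach (*Gkn3*, *Muc5ac*, *Atp4a*, *Atp4b*, *Ghrl*) where 1.26% of 14033 genes were. The members' median log2 fold changes were 8.56 and 6.60, beside 0.45 and 2.34 over all genes, and 8.03 and 6.16 with absent genes at their bound.

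The log2 fold change of every member was positive in all 4 comparisons, as reported and in each alternative that gave one. The lowest reported value was 3.56 with SE 0.48, for *Ghrl* over WT intestine (adjusted p = 1.47e-11). The pump gene *Atp4a* was higher in WT stomach than in intestine by 10.50 on the log2 scale (SE 0.40, adjusted p = 8.04e-90). *Tff1* stood 8.60 higher over WT intestine, but with SE 1.38 it missed the threshold (adjusted p = 0.0840). Where a gut group held no count, only a bound against 3 counts over the group was available. *Muc5ac* was at least 250.1-fold higher in WT stomach than in intestine, *Gkn3* at least 153-fold, and *Ghrl* in Scx-/- mice at least 73.6-fold. The bound for *Muc5ac* was 91.0 without intestine WT replicate 1, that for *Gkn3* 38.2 without stomach WT replicate 1 and 55.7 without intestine WT replicate 1, and that for *Ghrl* 37.3 without intestine Scx-/- replicate 1. Intestinal Scx-/- libraries were shallow, with 26500 to 54955 counts each. The number called over intestine was 10 in both genotypes by DESeq2, where 1.94% of all genes were called higher in WT stomach and 1.87% in Scx-/- stomach. It was 8 in WT without intestine WT replicate 2 (1.64% of all genes). In Scx-/- mice it was 8 without intestine Scx-/- replicate 1 (3.14%) and 9 without replicate 2 (1.90%).

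Intestinal libraries of 1 genotype differed widely. Summed over the members, WT intestine had 302, 1971, and 649 CPM, and Scx-/- intestine had 7351, 200, and 3925 CPM. The lowest and the highest of the 6 were both Scx-/- libraries, so the groups overlapped. The pancreatic acinar list, 15 genes of digestive enzymes, summed to 80.1, 21138, and 7176 CPM in the WT and to 43763, 800, and 4302 CPM in the Scx-/- libraries. Scx-/- replicate 1 was highest in both, and the part of these genes in the result was not tested.

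Between genotypes, *Gkn1* was lower and *Ghrl* higher in Scx-/- stomach, and the other 8 members did not pass the test. *Gkn1* measured 56866, 70278, and 50477 CPM in WT and 47304, 40930, and 50024 CPM in Scx-/- stomach. All WT libraries stood above all Scx-/- libraries, the closest by a narrow margin. The means were 59207 ± 10106 and 46086 ± 4668 CPM (SD, n = 3 each), 0.778 times the WT level, with a log2 fold change of -0.38 (SE 0.09, edgeR adjusted p = 0.0247). *Ghrl* measured 962, 909, and 1158 CPM in WT and 1894, 2383, and 1691 CPM in Scx-/- stomach. The groups were well apart, with the lowest Scx-/- library above the highest WT library. The means were 1010 ± 131 and 1990 ± 356 CPM (SD, n = 3 each), 1.97-fold higher, with a log2 fold change of 0.97 (SE 0.22, edgeR adjusted p = 0.0239).

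These 2 of 10 members stood beside 0.0609% of all genes called in stomach (9 of 14770, 7 higher and 2 lower). At the study's thresholds of an unadjusted p under 0.05 with at least a 2-fold change, 0 members passed by edgeR, where 3.31% of genes did. At an unadjusted p under 0.05 alone, 4 members passed by edgeR and 2 by DESeq2, where 3.69% and 3.17% of all genes did. The libraries of the genotypes did not overlap for 2 members (*Gkn1*, *Ghrl*), nor for 7.91% of all genes. Both adjusted calls depended on the fit. The call of each was lost in 7 of 12 planned and added alternatives, among them DESeq2 (adjusted p = 0.0734 for *Ghrl* and 0.99952 for *Gkn1*) and a filter on low counts. Over the alternatives the log2 fold change of *Ghrl* stayed between 0.82 and 1.05 (edgeR or DESeq2 adjusted p from 0.0157 to 0.999601), and that of *Gkn1* between -0.55 and -0.24 (adjusted p from 2.28e-06 to 0.999989). Without WT replicate 2 neither was called, with 1 gene called of all, nor without Scx-/- replicate 2, with 22 genes called. Without WT replicate 3, 4 members were called (*Gkn1*, *Gkn2*, *Gkn3*, *Ghrl*), among 12 of 14466 genes (0.083%). Without WT replicate 1, *Gkn1* and *Tff2* were called, among 17 of 14351 (0.118%). Without Scx-/- replicate 1 the 1 member called was *Gkn1*, among 15 genes (0.107%), and without Scx-/- replicate 3 it was *Ghrl*, among 6 (0.0416%).

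**Figure D2:**
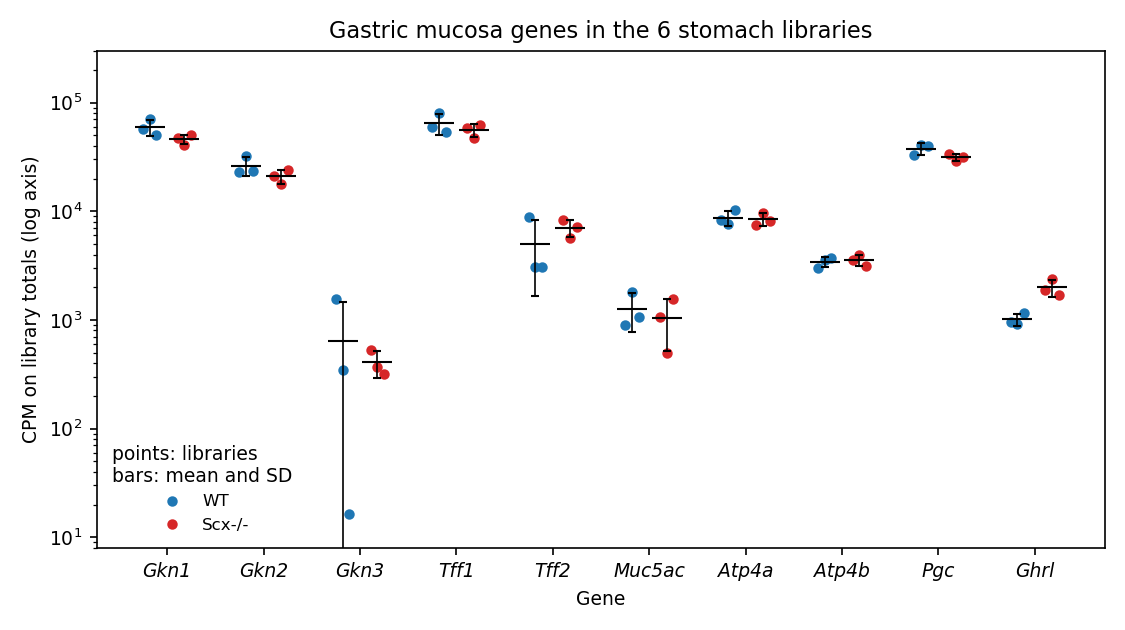
CPM of each gene in the 3 WT (blue) and 3 Scx-/- (red) stomach libraries on a log axis, with the mean and SD in black. The lower bar of *Gkn3* in WT, whose SD exceeds its mean, runs off the bottom of the axis. WT and Scx-/- points were apart for *Gkn1* and *Ghrl* and overlapped for the other 8 genes.

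The other surface products had lower means in Scx-/- stomach without passing. *Gkn2* measured 23025, 32062, and 23309 CPM in WT and 21172, 17806, and 23902 CPM in Scx-/- stomach, and the groups overlapped (log2 fold change -0.34, SE 0.10, edgeR adjusted p = 0.463). *Tff1* measured 59492, 79775, and 53582 CPM against 58696, 47666, and 62303 CPM (log2 fold change -0.21, edgeR adjusted p = 0.846). WT replicate 2 was the highest library for *Gkn1*, *Gkn2*, and *Tff1* alike. *Muc5ac* measured 903, 1822, and 1066 CPM against 1073, 498, and 1545 CPM, with overlapping groups (log2 fold change -0.31, edgeR adjusted p = 0.797).

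The neck cell products were uneven among WT libraries. *Tff2* measured 8866, 3081, and 3046 CPM in WT and 8234, 5673, and 7219 CPM in Scx-/- stomach. WT replicate 1 stood above every other library and the other WT libraries below every Scx-/- library (log2 fold change 0.49, SE 0.57, edgeR adjusted p = 0.901). Without WT replicate 1 the log2 fold change was 1.18 (SE 0.18, edgeR adjusted p = 1.76e-07). *Gkn3* measured 1575, 344, and 16.5 CPM in WT and 533, 371, and 315 CPM in Scx-/- stomach, so WT libraries were both the highest and the lowest (log2 fold change -0.67, SE 1.5, edgeR adjusted p = 0.977). WT replicate 1, highest for *Tff2*, was also highest for *Gkn3*.

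The acid pump subunits had the log2 fold changes smallest in size, and that of the pepsinogen lay between those of *Tff1* and *Muc5ac*. *Atp4a* measured 8226, 7643, and 10260 CPM in WT and 7419, 9668, and 8134 CPM in Scx-/- stomach (log2 fold change -0.07, SE 0.14, edgeR adjusted p = 0.967). *Atp4b* measured 3030, 3536, and 3693 CPM against 3534, 3987, and 3155 CPM (log2 fold change 0.04, SE 0.17, edgeR adjusted p = 0.990). The groups overlapped for both subunits, and the sign for *Atp4b* turned under some scalings. *Pgc* measured 32627, 40707, and 39827 CPM in WT and 33615, 28814, and 31461 CPM in Scx-/- stomach, where only WT replicate 1 fell within the Scx-/- range (log2 fold change -0.28, SE 0.10, edgeR adjusted p = 0.797). Summed over the 10 genes, WT had 207389 ± 28744 and Scx-/- 177006 ± 16930 CPM (SD, n = 3 each), with overlapping ranges. The median log2 fold change of the members was -0.25, beside 0.14 over all genes.

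Lists of markers, written from textbook knowledge with earlier results of these data known, were set beside these genes. Of 7 gastric endocrine genes, *Ghrl* was the 1 called, and 6 had a positive log2 fold change (median 0.24). Their summed level was 1568 to 2439 CPM in WT and 3301 to 3416 CPM in Scx-/- stomach. Without *Ghrl* it was 1062, 658, and 1280 CPM in WT and 1501, 1033, and 1610 CPM in Scx-/- stomach, and the groups overlapped. *Sst*, the somatostatin gene, had a log2 fold change of -0.10 (adjusted p = 0.984) and *Gast*, the gastrin gene, 1.57 with SE 2.12 (adjusted p = 0.931). *Gast* measured 440, 12.0, and 0 CPM in WT and 626, 40.4, and 695 CPM in Scx-/- stomach, so that libraries of both genotypes were near 0.

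Of the other gastric lists, 1 of 7 surface genes was called (*Gkn1*, lower), all 7 had negative values (median -0.34, *Gkn3* listed here and with the neck genes), and the surface marker *Psca* came next after *Gkn1* (log2 fold change -0.55, SE 0.14, adjusted p = 0.131). None of 4 neck, 9 parietal, 4 chief, or 9 other gastric epithelial genes tested was called, with median log2 fold changes of -0.09, 0.08, -0.46, and -0.01. *Pga5*, a pepsinogen gene, measured 495, 559, and 2937 CPM in WT and 679, 586, and 214 CPM in Scx-/- stomach, so that WT replicate 3 stood alone. That library also had the highest *Chia1* and *Gif* and the lowest *Gkn3* and *Gast* of the 6. The forestomach squamous genes had 16 of 17 positive values and a median of 0.75 with 0 called. *Krtdap*, *Lor*, and *Krt10*, its most abundant genes, averaged 831, 813, and 719 CPM. The squamous list summed to 2965 to 5523 CPM in WT and 5502 to 7551 CPM in Scx-/- stomach, and smooth muscle genes (*Acta2*, *Actg2*, *Tagln*, and others) to 5361 to 6934 and 5959 to 9864 CPM, with 0 of 9 called and a median of 0.48. Enterocyte and goblet lists had 0 of 8 and 0 of 5 called. At an unadjusted p under 0.05, where 3.69% of all genes passed by edgeR and 3.17% by DESeq2, edgeR passed 5 squamous, 4 smooth muscle, 3 surface, 3 enterocyte, 2 goblet, 1 endocrine, and 1 chief cell genes. DESeq2 passed 4, 2, 2, 3, 0, 1, and 1, and neither passed a neck, parietal, or other epithelial gene. DESeq2 called no gene of these lists. Of 5 blood genes, the globin gene *Hbb-bs* was called lower (adjusted p = 0.000766), at 2.27, 296, and 0 CPM in WT and 0 in all Scx-/- libraries. DESeq2 called 0 of the blood genes and passed 0 at an unadjusted p under 0.05.

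Of 13 pancreatic acinar genes tested, 3 rose in Scx-/- stomach by edgeR, where 0.0609% of all genes were called, and 2 by DESeq2, where 0.0135% were. Both tools called *Try5* and *Pnlip*, which encode a trypsinogen and pancreatic lipase. These 2 were the only genes of the whole fit that DESeq2 called. All 13 had positive log2 fold changes (median 4.31), and 7 passed an unadjusted p under 0.05 by edgeR and 13 by DESeq2. The list summed to 699, 506, and 1069 CPM in WT and to 27647, 1133, and 7397 CPM in Scx-/- stomach. Scx-/- replicate 1 was far above the rest, and each Scx-/- library exceeded every WT library. With these genes left out of the table before totals and scaling, an alternative added after their values were seen, *Gkn1* and *Ghrl* were still called (log2 fold changes -0.38 and 0.97, edgeR adjusted p = 0.0380 and 0.0271). The list took 0.0506 to 2.76% of the counts of a stomach library, so leaving it out could change these values little. The part of squamous, muscle, and pancreatic RNA in the genotype differences was not tested.

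**Figure D3:**
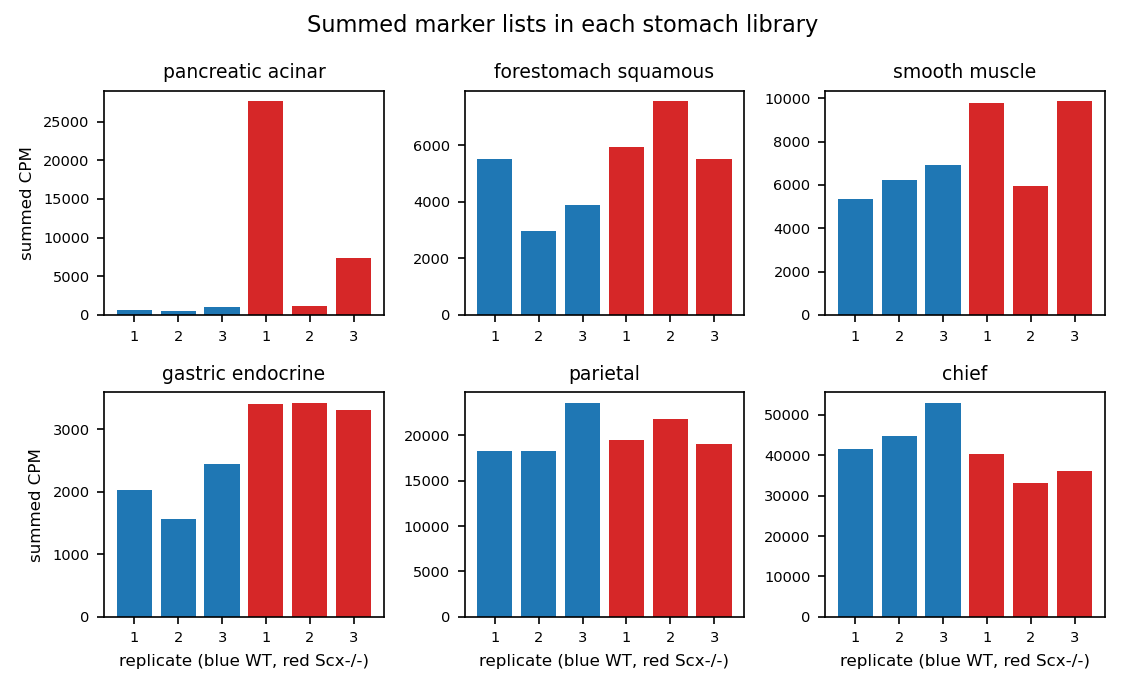
Summed CPM of 6 marker lists in each stomach library (bars start at 0, blue WT and red Scx-/-, replicates 1 to 3). The endocrine sums, which include *Ghrl*, were 1568 to 2439 CPM in WT and 3301 to 3416 CPM in Scx-/- stomach and overlapped without it, and pancreatic sums ranged from 506 to 27647 CPM.

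In the 15 other tissues, 0 of 89 pairs of a member and a tissue with counts were called between genotypes by edgeR, beside 0.0936% of 205226 gene and tissue pairs. At an unadjusted p under 0.05, 7 pairs passed by edgeR and 6 by DESeq2, which called 0 of the 59 pairs for which it gave an adjusted p. Of all gene and tissue pairs, 4.03% and 3.56% passed at that threshold. The 7 were *Gkn1*, *Gkn2*, *Tff1*, and *Ghrl* in intestine, *Tff1* in kidney, and *Tff2* and *Pgc* in spleen. *Ghrl* in intestine had 11, 13, and 25 counts in WT (28.4, 102, and 266 CPM) and 0, 0, and 0 counts in Scx-/- libraries. Every WT library had counts where no Scx-/- library did. Pooled, WT had 80.6 CPM, and 0 of 111469 counts in Scx-/- libraries allows up to 26.9 CPM, so that WT was at least 2.99-fold higher (edgeR adjusted p = 0.652). Without WT replicate 3 this bound was 1.73, and without WT replicate 1 it was 6.38. In stomach the same gene was higher in Scx-/- libraries, and the difference between the genotype effects of stomach and intestine was itself tested after the values were seen (edgeR adjusted p = 0.000256, with 0.0382% of 15710 genes called, and DESeq2 adjusted p = 0.0752). *Gkn1* in intestine measured 59.4, 471, and 42.6 CPM in WT and 1365 and 2453 CPM in Scx-/- replicates 1 and 3, while Scx-/- replicate 2 had 3 counts of 30014. The groups overlapped through that library (log2 fold change 2.28, SE 0.79, edgeR adjusted p = 0.652, beside a median of -1.63 over all genes). The log2 fold change was 4.14 without intestine WT replicate 2 and 1.66 without Scx-/- replicate 3, with adjusted p of 0.833 and 0.716.

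*Tff2* was the member with most counts outside stomach, 5658 of the 11353 member counts there. In adipose it measured 3832, 2707, and 4617 CPM in WT and 3294, 2949, and 3109 CPM in Scx-/- libraries. All 6 libraries were high and the groups overlapped (log2 fold change 0.33, SE 0.35, edgeR adjusted p = 0.640, beside a median of 1.47 over all genes of that fit). The sign turned with the scaling, to -0.25 with library totals and -0.12 with RLE factors and by DESeq2, and it was -0.01 with filterByExpr. The mean CPM was 3719 in WT and 3118 in Scx-/- libraries. Its mean there, 3418 ± 699 CPM (SD, n = 6), was 56.8% of the stomach mean of 6020 ± 2531 CPM, and the ranges overlapped. The same libraries were those of which pancreatic genes took 47.7 to 58.8%. *Gkn1* in adipose measured 278, 388, and 238 CPM in WT and 97.9, 74.9, and 54.2 CPM in Scx-/- libraries. Every WT library was higher, and the difference was not called (log2 fold change -1.44, SE 0.84, edgeR adjusted p = 0.614). The counts behind it were 25 to 39 in WT and 25 to 43 in Scx-/- libraries, whose totals were 100469 to 140132 and 333668 to 498158.

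In spleen *Tff2* had 11, 22, and 0 counts in WT and 0, 76, and 46 counts in Scx-/- libraries. The pancreatic list summed to 15556, 11915, and 100.1 CPM in those WT and to 55.6, 96240.5, and 46083.5 CPM in those Scx-/- libraries. The spleen libraries without a *Tff2* count were those with the least pancreatic signal. The log2 fold change of *Tff2* in spleen was 2.93 (SE 0.85, edgeR adjusted p = 0.788), and with the replicate block 2.44 (adjusted p = 1). Without Scx-/- replicate 1, the one at 0 counts, it was 3.51 (adjusted p = 0.00238). Without Scx-/- replicate 2 it was 1.93 (adjusted p = 0.902) and without WT replicate 2 it was 4.02 (adjusted p = 0.939). In lung, *Tff2* had 4, 0, and 0 counts in WT and 9, 6, and 0 in Scx-/- libraries, while the pancreatic list held 0 to 5 counts in each. The part of pancreatic RNA in the *Tff2* counts was not tested.

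The mixture of members is given as shares of their counts. In stomach, *Gkn1*, *Gkn2*, *Tff1*, and *Pgc* took 27.2, 12.1, 31.4, and 17.9% of the member counts, 88.7% together. In cartilage the same genes took 25.5, 11.3, 31.8, and 20.5% of 1294 member counts, and in liver 25.2, 11.1, 29.5, and 22.4% of 1011. They were also the leading genes of rectum, kidney, and intestine, where they took 85.2, 84.7, and 84.0% together. All 10 genes were counted in cartilage and liver, and each of the 6 libraries of either held member counts. Summed member levels in cartilage were 1028, 960, and 591 CPM in WT and 1497, 735, and 565 CPM in Scx-/- libraries, with the highest and the lowest both Scx-/-. In liver they were 378, 758, and 388 CPM in WT and 340, 243, and 222 CPM in Scx-/- libraries, all WT libraries above all Scx-/- libraries, and none of the members passed the test there. In adipose *Tff2* took 87.2% of the member counts and in spleen 88.1%, and it was 19 of the 20 member counts of lung. Rectum held 385 member counts, and *Gkn1* there measured 106, 120, and 60.3 CPM in WT and 343, 60.7, and 89.2 CPM in Scx-/- libraries, with overlapping groups. *Ghrl* in rectum had 1, 1, and 0 counts in WT and 0 in all Scx-/- libraries, and *Gkn3* had none in either genotype.

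Bladder held 208 member counts, of which *Gkn1* had 9, 44, and 8 in WT and 0, 31, and 11 in Scx-/- libraries, while *Gkn3*, *Atp4a*, *Atp4b*, and *Ghrl* were at 0 in all 6. At least 1 member count was found in 67 of the 90 libraries outside stomach (56 at a minimum of 3 counts). These shares are of reads and not of transcripts.

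**Figure D4:**
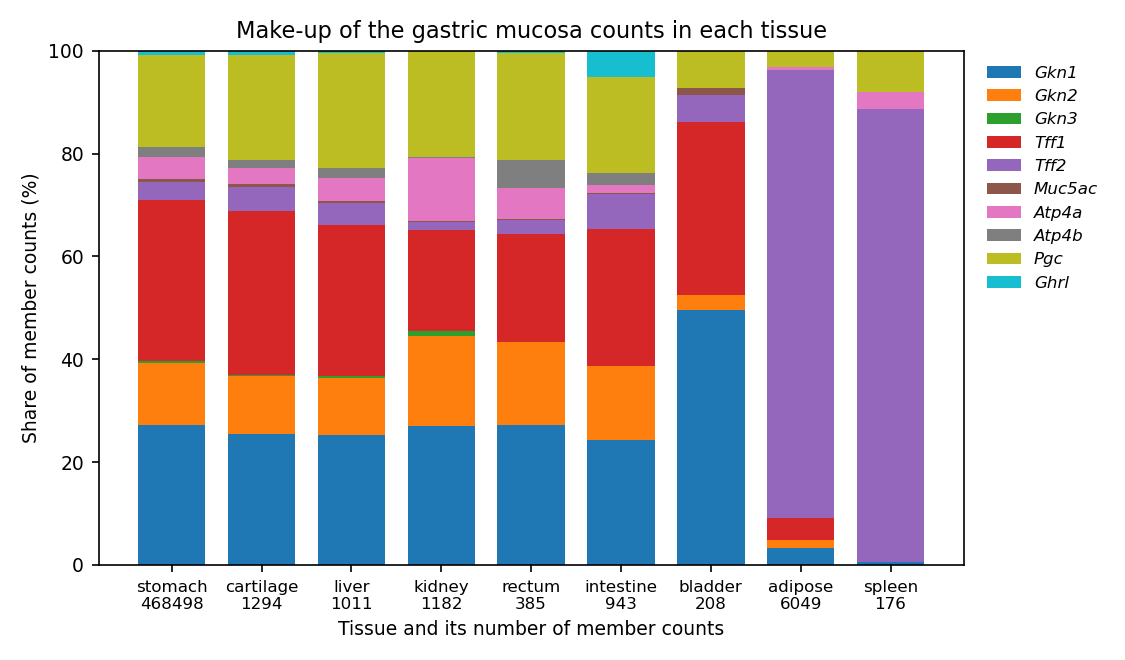
Share of the member counts taken by each gene, as a stacked bar per tissue that reaches 100%, for stomach and 8 tissues with at least 176 member counts (number printed under each bar). Cartilage, liver, kidney, rectum, and intestine bars had the same 4 leading genes as stomach, whereas *Tff2* took 87.2% in adipose and 88.1% in spleen. Tissues with fewer than 50 member counts, lung among them, are not drawn.

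The balance of the pump subunits in kidney and intestine had exact intervals of counting error that did not overlap that of stomach, also without any 1 kidney or intestine library. The intervals pool libraries and leave out the spread between them. In stomach the share of *Atp4a* was lowest in Scx-/- replicate 1 (5194 *Atp4a* and 2474 *Atp4b* counts) and highest in WT replicate 3 (3109 and 1119). *Atp4a* made up 70.6% of the *Atp4a* and *Atp4b* counts in stomach (exact 95% interval 70.1 to 71.1%), and 144 of 147 in kidney, 98.0% (94.2 to 99.6%), where the 3 *Atp4b* counts were all in 1 WT library. Liver, cartilage, and adipose gave 68.8, 67.2, and 68.6%, with the stomach value inside their intervals. In rectum the share was 52.3% of 44 counts (36.7 to 67.5%) and in intestine 40.0% of 35 counts (23.9 to 57.9%), both below stomach where kidney was above. The rectum value rested on single libraries, since without Scx-/- replicate 3 *Atp4a* had 6 of 24 counts (interval 9.77 to 46.7%) and without WT replicate 2 it was 60.6% of 33 counts (42.1 to 77.1%), an interval that takes in the stomach value. The renal *Atp4a* counts were 45, 41, and 37 in WT and 14, 0, and 7 in Scx-/- libraries, and each WT library had more than any Scx-/- library. At CPM levels of 44.3, 46.6, and 55.0 against 31.3, 0, and 28.9, the groups did not overlap, and the difference was not called (log2 fold change -1.36, SE 0.99, edgeR adjusted p = 0.791). The log2 fold change was -0.76 without Scx-/- replicate 2, the library at 0, and -1.94 without Scx-/- replicate 1. *Gkn1* and *Pgc* in kidney were most abundant in Scx-/- replicate 3, at 367 and 210.4 CPM, a library with 7 *Atp4a* counts.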

How the data were processed

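MuSeq libraries of 96 bulk samples were analysed (16 tissues, WT and Scx-/-, 3 each). Per the labels and methods, the authors reverse transcribed total RNA with sample barcodes, made Nextera XT libraries, mapped reads to mm10 with Bowtie2, and counted them per gene with HTSeq. The sources used here give no versions, annotation, strand setting, or use of molecular identifiers. The deposited table holds raw counts per gene. The study calls the libraries 3′-enriched, and the series record names a Smart-seq2 based technique.

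CPM was computed on library totals (11244 to 1658192 counts). Tests used edgeR 4.0.16 (R 4.3.3) with TMM factors, robust glmQLFit, and genes at 0 in all 6 libraries removed. Benjamini-Hochberg adjustment was over all genes of a fit, and called means an adjusted p under 0.05. The model assumes equal spread of groups when a library is left out. DESeq2 1.42.0, RLE factors, library totals, filterByExpr, the replicate number as a block, thinning to 57359 counts, and leaving out each library were alternatives. Leaving out the pancreatic genes, and the genotype by tissue test for *Ghrl* with its alternatives, were added after values were seen. The scripts were tested on counts simulated for the genotype fit of stomach, among genes of at least 50 CPM. Of 100 genes with a planted 16-fold change 77 were called in the right direction, and of 100 with a 4-fold change 23. Genes not called can therefore still differ. Exact intervals are Clopper-Pearson, and floors are 3 counts over a group. Exact permutation of 3 and 3 libraries gives no p under 0.1, and the p-values of the model are given instead.

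The members and lists were chosen with earlier results of these data known. Named genes are all members, called genes of the marker lists or up to 3 of their most abundant genes, and the 5 genes most correlated with the members among those with at least 10 CPM in a group. Other names, and the gastrokine promoters, were chosen after values were seen. Promoters are from RefSeq, positions from GENCODE M21. Python 3.11.15 with numpy 2.4.6, pandas 2.3.3, scipy 1.17.1, and matplotlib 3.10.9 was used. *Tff1*, *Tff2*, *Muc5ac*, and *Atp4b* had no promoter entry, and protein sequences and single-cell data were not used here. The result of 1 gene of the marker lists is not reported here.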

Additional observations from a re-analysis of the deposited data

Results flagged for a closer look

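The genotype difference of *Ghrl* in stomach and that in intestine had opposite signs. *Ghrl* was higher in Scx-/- stomach (1990 against 1010 CPM) and had 49 counts in WT intestine and 0 in Scx-/- intestine, and a test of the difference between these differences, added after the values were seen, gave an adjusted p = 0.000256 by edgeR, where 0.0382% of 15710 genes were called. Leaving out each library gave adjusted p from 5.89e-05 to 0.0212, and other settings, also added after the result was seen, gave 0.00171 (RLE factors), 0.00323 (library totals), 0.000134 (filterByExpr), 0.000160 (replicate block), and 0.0752 (DESeq2, not called). The difference within intestine was not called (edgeR adjusted p = 0.652), and the call within stomach was lost in 7 of 12 alternatives. The Scx-/- intestine libraries held 111469 counts together, so that their level is known only as under 26.9 CPM, and the intestinal libraries also differed in pancreatic genes, whose part was not tested.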

How the results depend on the processing

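Of 120 alternative values for single members between genotypes in stomach, 93 kept direction and side of the threshold, 14 lost the call, 3 gained it, and 10 changed sign. Signs changed for the log2 fold change of *Gkn3* (0.48 with the replicate block, -1.28 to 1.12 with a library left out), *Muc5ac* (-0.68 to 0.063 with a library left out), and *Atp4b* (-0.019 with RLE, -0.018 with DESeq2, -0.026 with filterByExpr, -0.060 to 0.11 with a library left out). Members called in stomach numbered 1 with library totals, 0 with filterByExpr, DESeq2, and the replicate block, and 0 to 4 when each library was left out. Stomach over intestine gave 8 (filterByExpr) and 10 (DESeq2) in WT, 10, 10, and 9 (filterByExpr, DESeq2, block) in Scx-/- mice, and 4 to 8 and 5 to 9 with a library left out. In the 15 other tissues, leaving out each library gave 0 to 1, and left no member count in muscle and in bone without Scx-/- replicate 3. The cause was not tested.

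Genes called in stomach numbered 9, but 0 with filterByExpr, 2 with DESeq2, and 1 to 22 with a library left out. In the 15 other tissues together 192 genes were called, but 58 with filterByExpr, which tested 63122. Genes higher over intestine in Scx-/- mice numbered 177, but 106 with RLE, 71 with library totals, 301 with filterByExpr, 81 with the block, and 67 to 435 with a library left out. Over rectum they were 158 in WT and 175 in Scx-/- mice, but 102 with library totals in WT and 115 with filterByExpr in Scx-/-, and 101 to 190 and 110 to 236 with a library left out. Under library totals the median log2 fold change of all genes over intestine was 0.05 in WT and 1.92 in Scx-/- mice, and over rectum -0.14 and -0.37, and every member stayed above it. Library totals lowered the share of higher calls from 45.3 to 30.4% (intestine, WT), 50.9 to 17.9% (intestine, Scx-/-, 31.8% with RLE), 58.1 to 31.4% (rectum, WT), and 52.7 to 32.4% (rectum, Scx-/-).

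In the 5 comparisons with stomach libraries, same-numbered deviations correlated at -0.018 to 0.036. The values of stomach against intestine and rectum were all positive, and those between genotypes in stomach had both signs. Whether replicate numbers pair libraries cannot be decided from such low correlations, since counting noise could hide a shared animal. The other tissues were not checked for pairing.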
